A study of Homo sapiens with 5 samples.

Results

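The genes described here carry antigen presentation by the major histocompatibility complex (MHC): HLA-DRA, HLA-DPA1, HLA-DMA, HLA-DMB, CD74 and CIITA of the class II pathway, and B2M, TAP1, TAP2 and PSMB9 of the class I pathway. Each gene was taken as the brightest feature, by mean over 5 arrays, among features annotated with exactly 1 gene symbol. Of the 10 genes, 8 had such a feature, out of 14232 genes measured in this way. HLA-DMA and PSMB9 had none. Each of these genes was covered by a feature that carried a second symbol, and the values of those features are given below as belonging to both symbols together. Every value is a log2 expression level from 1 Affymetrix exon array, normalised by the authors. The genes were chosen with their levels and differences in these arrays already known, so these values are given as a description without a test.

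Class II molecules are pairs of an alpha and a beta chain that display peptides from endosomes to helper T cells. They are assembled with the invariant chain, encoded by CD74, and the peptide remnant of that chain is exchanged for antigen by HLA-DM, a pair of the HLA-DMA and HLA-DMB chains. CIITA is the transactivator on which transcription of these genes mostly depends, and interferon gamma induces it in many cells that are not professional antigen-presenting cells. Class I molecules display peptides from the cytosol on nearly all cells. Proteasomes cut these peptides, the TAP1 and TAP2 pair carries them into the endoplasmic reticulum, and B2M is the light chain of the complex.

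The arrays held RNA from established human lung cancer cell lines. A549 is a lung adenocarcinoma line in which, per the submitters, the kinase LKB1 is inactivated by mutation and NEDD9 is raised, on all of its arrays. It was profiled with NEDD9 knockdown by shNEDD9 #1 and by shNEDD9 #2 (hairpin 1 and hairpin 2, n = 2 arrays) and as a control (n = 1). CRL-5907, in which LKB1 is wild type and NEDD9 low per the submitters, was profiled with NEDD9 overexpression (n = 1) and as a control (n = 1). NEDD9 is a scaffold protein of focal adhesions. The design asks which genes change as NEDD9 is lowered in A549 and raised in CRL-5907. The labels do not say which construct the control cells carried, whether the cells were pools or clones, or whether the hairpin arrays came from separate cultures, so a spread between them may be technical.

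NEDD9 followed the labels, at 8.35 with hairpin 1 and 8.52 with hairpin 2 against 8.94 on the A549 control, and at 9.49 with overexpression against 4.66 on the CRL-5907 control. All 5 epithelial markers (EPCAM, KRT8, KRT18, KRT19 and CDH1) lay above the array median on every array. None of the 4 measured B cell markers and none of the 4 leukocyte and T cell markers did on any array. The leukocyte marker PTPRC, which encodes CD45, had the same value of 1.72 on all 5 arrays. Of the 6 myeloid markers only CD14 lay above the median, on all arrays but hairpin 2, at 6.08 with hairpin 1 and 5.63 with hairpin 2 against 6.47 on the A549 control, and at 6.96 with overexpression against 6.91 on the CRL-5907 control. The summed unlogged levels of the B cell markers were 113 and 108 with the hairpins against 114 on the A549 control, and 116 with overexpression against 109 on the CRL-5907 control. Those of the myeloid markers were 158 and 131 against 183, and 204 against 200. Those of the leukocyte and T cell markers were 23.98 and 22.8 against 23.9, and 22.8 against 23.2.

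HLA-DMB encodes the beta chain of HLA-DM and is the member with the furthest difference under NEDD9 overexpression. Its promoter and that of HLA-DMA, its neighbour on chromosome 6, are shown because both hold the letters searched here as the end of a class II X box. The X box is the site bound by the RFX complex. The promoter of CD74 is shown for comparison as that of a class II gene with the same value on all arrays, and that of TAP2 because TAP2 had the furthest difference between the control arrays among the 8 genes. The sequences are RefSeq's for GRCh38.p14, from 250 bases before to 50 after the annotated start, all on the minus strand and written 5′ to 3′. They are HLA-DMB at chr6:32940979-32941278, HLA-DMA at chr6:32953048-32953347, CD74 at chr5:150412861-150413160 and TAP2 at chr6:32838690-32838989. Capitals mark matches, on either strand, to 3 motifs: the X box end (ACNGATGAT), the CCAAT box (CCAAT, the core of the class II Y box) and an interferon response motif (GAAANNGAA). No matches of different motifs overlapped in these windows.
HLA-DMB: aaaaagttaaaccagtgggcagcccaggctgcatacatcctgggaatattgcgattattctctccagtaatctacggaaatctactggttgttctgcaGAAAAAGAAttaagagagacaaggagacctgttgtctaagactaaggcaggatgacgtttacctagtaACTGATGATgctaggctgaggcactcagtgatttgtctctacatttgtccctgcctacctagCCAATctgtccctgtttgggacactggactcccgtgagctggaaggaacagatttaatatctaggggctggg
HLA-DMA: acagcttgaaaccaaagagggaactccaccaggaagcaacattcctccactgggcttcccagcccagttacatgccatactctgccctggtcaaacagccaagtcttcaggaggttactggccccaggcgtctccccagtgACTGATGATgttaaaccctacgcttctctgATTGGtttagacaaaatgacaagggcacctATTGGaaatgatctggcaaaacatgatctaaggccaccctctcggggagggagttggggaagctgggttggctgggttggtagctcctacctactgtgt
CD74: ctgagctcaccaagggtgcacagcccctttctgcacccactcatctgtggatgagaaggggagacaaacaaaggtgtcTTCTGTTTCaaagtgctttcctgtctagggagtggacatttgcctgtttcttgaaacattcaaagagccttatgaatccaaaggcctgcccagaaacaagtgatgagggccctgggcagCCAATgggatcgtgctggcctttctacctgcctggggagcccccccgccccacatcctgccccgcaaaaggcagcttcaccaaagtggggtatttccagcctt
TAP2: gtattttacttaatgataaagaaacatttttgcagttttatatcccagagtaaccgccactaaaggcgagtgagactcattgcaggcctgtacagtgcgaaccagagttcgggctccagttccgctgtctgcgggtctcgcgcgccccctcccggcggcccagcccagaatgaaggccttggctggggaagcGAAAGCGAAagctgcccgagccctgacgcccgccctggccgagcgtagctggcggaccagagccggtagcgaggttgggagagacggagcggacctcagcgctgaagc

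The motifs were chosen from textbook knowledge with the windows in view. The letters of the X box end were the last of 3 spellings searched, after a longer one and a looser one, and were kept because both HLA-DM windows hold them and few other windows do. Their rarity, and their presence in these windows, therefore follow in part from that choice. The looser spelling (GNNACNGAT) was present in 6.55% of windows and, among the members, also in HLA-DMB and HLA-DMA only. The X box end was present in 164 of 35116 promoter windows (0.467%), the CCAAT box in 34.6% and the interferon response motif in 8.11%. Of the 8 members with a window, only HLA-DMB and HLA-DMA held the X box end, at -84 to -76 in HLA-DMB and at -109 to -101 in HLA-DMA, counted from the start site as 0. Both also held a CCAAT box on the downstream side, at -22 to -18 in HLA-DMB, and at -79 to -75 and -49 to -45 in HLA-DMA. The layout differed between them. The match read CCAAT in HLA-DMB and ATTGG, on the other strand, in HLA-DMA. It lay further from the X box end in HLA-DMB than the nearer match did in HLA-DMA. Whether any of these CCAAT matches is a Y box, or either X box end is part of a bound X box, was not tested. CD74 held a CCAAT box and no match to the X box end. Only exact matches were searched, so CD74, HLA-DPA1 and other windows without one may hold an X box spelled otherwise. The interferon response motif was found in 6 of the 8 members with a window (HLA-DMB, HLA-DPA1, CD74, B2M, TAP1 and TAP2), and in B2M and TAP1 as a pair of overlapping matches. Of the 10 windows, 1 of HLA-DPA1 and 1 of TAP1 held none of the motifs. HLA-DRA and CIITA had no window in the table.

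**Figure D1:**
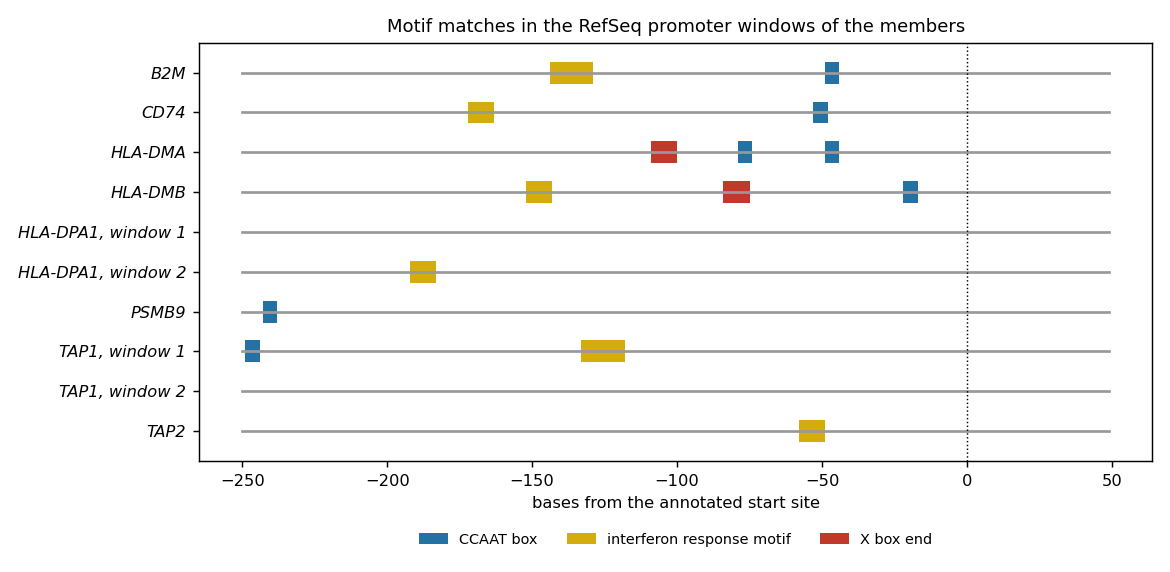
Positions of motif matches in the promoter windows of 8 members, with the distance from the annotated start site in bases on the horizontal axis and 1 line per window. Only the HLA-DMA and HLA-DMB windows hold the X box end (red) in the spelling searched, which was chosen with them in view. Other windows may hold an X box spelled otherwise. The interferon response motif (yellow) lies in windows of 6 members.

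HLA-DMB had a log2 level of 7.87 with NEDD9 overexpression against 8.94 on the CRL-5907 control array. With knockdown in A549 it was at 8.24 with hairpin 1 and 7.98 with hairpin 2, against 7.93 on the A549 control. The CRL-5907 control was the highest of the 5 arrays and the overexpression array the lowest, next to the A549 control. All 5 values lay above the array medians, which ran from 5.69 to 5.85. The log2 difference with overexpression was -1.07, a level 2.10-fold lower, and only 4 of the 7406 genes that passed the level filter in CRL-5907 were further down. Neither array has a replicate, so this difference has no replicate check. In RNA from bulk cultures, fewer cells expressing a gene and less of its RNA per cell cannot be told apart. As a yardstick, the SD of the difference between the 2 hairpin arrays over genes of the same level was 0.138 for HLA-DMB. That SD includes true differences between the hairpins and was measured in A549 only. With knockdown the mean difference was 0.18 ± 0.18 (SD, n = 2). Hairpin 1 gave 0.31 and hairpin 2 gave 0.05, so the distance from control was no larger than the spread between the hairpins. The 2 hairpin differences share 1 control array, and their SD leaves out its error.

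The A549 control lay 2.01-fold below the CRL-5907 control for HLA-DMB, a log2 difference of -1.01. This difference and that with overexpression subtract the same CRL-5907 control array, and an error of that array would enter both. In the order of levels, the gaps below the CRL-5907 control (0.70) and between hairpin 1 and hairpin 2 (0.26) exceeded the yardstick of 0.138. The gaps from hairpin 2 to the A549 control (0.05) and from there to the overexpression array (0.06) did not.

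A further feature carried the symbols HLA-DMA and HLA-DMB together and cannot be assigned to either. It was at 9.02 with overexpression against 9.95 on the CRL-5907 control, a log2 difference of -0.94. It was at 7.42 with hairpin 1 and 7.41 with hairpin 2 against 7.42 on the A549 control. The A549 control thus lay 5.79-fold below the CRL-5907 control (log2 difference -2.53), and the overexpression array stayed above all 3 A549 arrays. On this feature and on that of HLA-DMB alone the overexpression array was lower than the CRL-5907 control by about the same amount. The features differed in the distance between the lines, which was larger on the shared feature, and the hairpin values on the shared feature were almost equal to control.

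Those chains that HLA-DM works on and that were measured, and the chaperone, were not seen above the array medians in either line. HLA-DRA, the invariable alpha chain of HLA-DR, was at 3.18 and 3.17 with the hairpins against 3.30 on the A549 control, and at 3.18 with overexpression against 3.18 on the CRL-5907 control. HLA-DPA1, the alpha chain of HLA-DP, was at 3.39 and 3.37 with the hairpins against 3.41 on the A549 control, and at 3.21 with overexpression against 3.39 on the CRL-5907 control. All of these values lay more than 2 log2 units below the medians of their arrays, and no gap between neighbouring arrays exceeded the yardstick of 0.263 for this level. The transactivator gene CIITA was at 4.80 with each hairpin against 4.87 on the A549 control. In CRL-5907 it was at 4.72 with overexpression against 4.80 on the control. Its 4 log2 differences had sizes of 0.07 to 0.08, below the yardstick of 0.205. CD74 had exactly the same value of 4.43 on all 5 arrays. Such ties can arise in RMA, the authors' normalisation (298 of 22011 features, 1.35%, had 1 value on all arrays), so the zero differences of CD74 do not show that it was unchanged. Values below the array median may be background, and for these 4 genes a difference could have gone unseen.

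**Figure D2:**
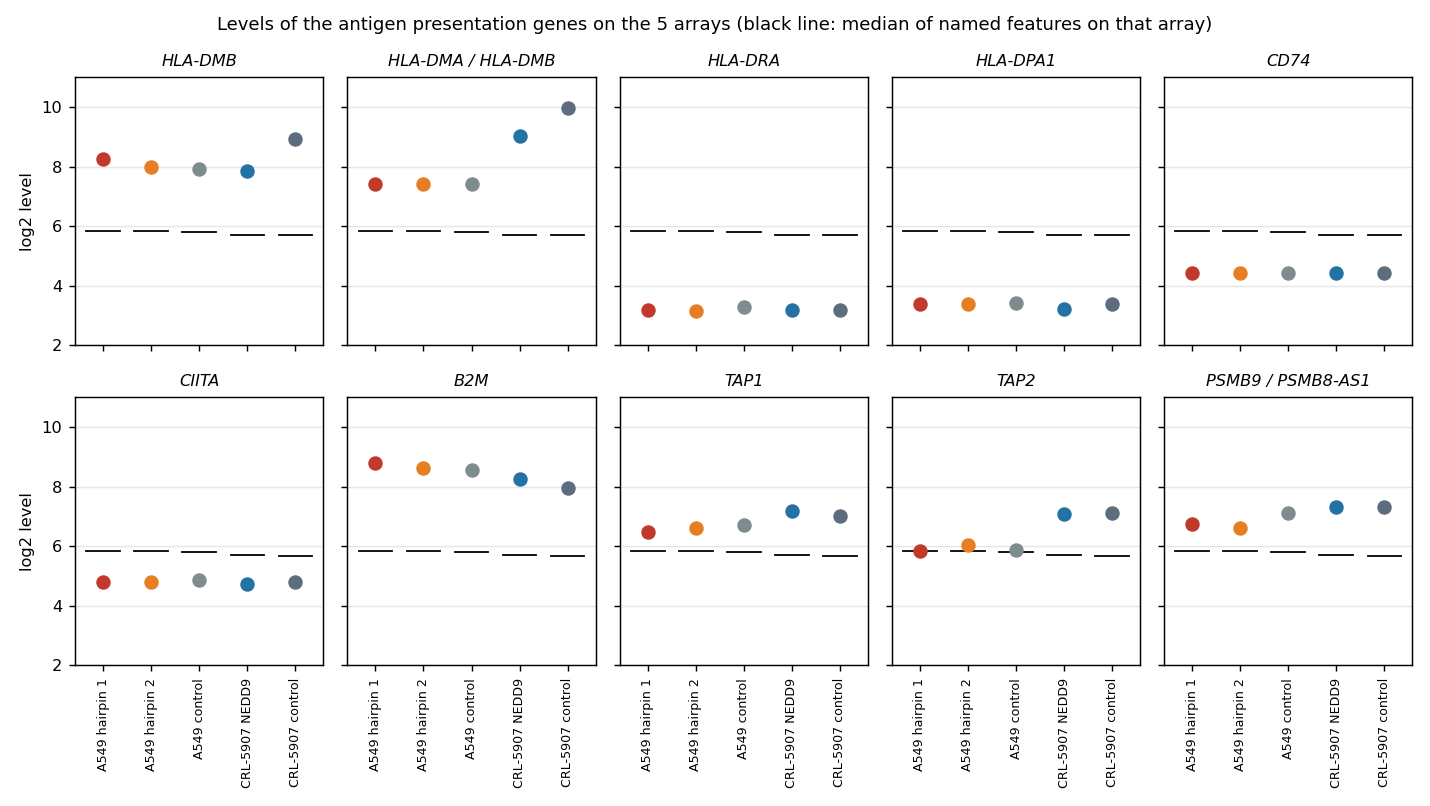
Log2 level (vertical axis) of the 8 measured members and of the 2 features with 2 symbols on each of the 5 arrays, with 1 point per array and a black line at the median of named features on that array. HLA-DMB and the shared HLA-DMA and HLA-DMB feature lie above the line on all arrays, while HLA-DRA, HLA-DPA1, CD74 and CIITA lie below it on all arrays.

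The class I genes were all above the array medians. B2M was at 8.79 with hairpin 1 and 8.62 with hairpin 2 against 8.55 on the A549 control, and at 8.27 with overexpression against 7.95 on the CRL-5907 control. Its mean difference with knockdown was 0.15 ± 0.12 (SD, n = 2) and its difference with overexpression was 0.32. The 3 A549 arrays were higher than both CRL-5907 arrays, and the A549 control was 1.52-fold above the CRL-5907 control (log2 difference 0.60). In the order of levels only the gap between hairpin 2 and the A549 control (0.07) was below the yardstick of 0.136.

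TAP1, a subunit of the peptide transporter, was at 6.49 with hairpin 1 and 6.62 with hairpin 2 against 6.71 on the A549 control. It was at 7.19 with overexpression against 7.01 on the CRL-5907 control. The mean difference with knockdown was -0.15 ± 0.09 (SD, n = 2), and the difference with overexpression was 0.18, slightly above the yardstick of 0.160. Hairpin 1 (-0.22) was also past the yardstick, and hairpin 2 (-0.09) was not. TAP2, the partner subunit, was at 5.85 with hairpin 1 and 6.05 with hairpin 2 against 5.87 on the A549 control. It was at 7.08 with overexpression against 7.11 on the CRL-5907 control. The A549 values of TAP2 lay close to the array medians and the CRL-5907 values well above them, so that the A549 control was 2.36-fold below the CRL-5907 control (log2 difference -1.24). For TAP1 the corresponding log2 difference was -0.30. For TAP2 neither manipulation moved the level further than 0.18 from its control. Of these differences only that of hairpin 2 (0.180) was above the yardstick of 0.178, and only slightly.

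PSMB9, a catalytic subunit of the immunoproteasome, was represented only by a feature shared with the antisense gene PSMB8-AS1. This feature was at 6.75 with hairpin 1 and 6.61 with hairpin 2 against 7.12 on the A549 control, and at 7.33 with overexpression against 7.32 on the CRL-5907 control. Both hairpin arrays were below all other arrays, with a mean log2 difference of -0.44 ± 0.09 (SD, n = 2) that was short of 1.5-fold (0.585 in log2). Which of the 2 symbols the signal came from cannot be told apart.

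**Figure D3:**
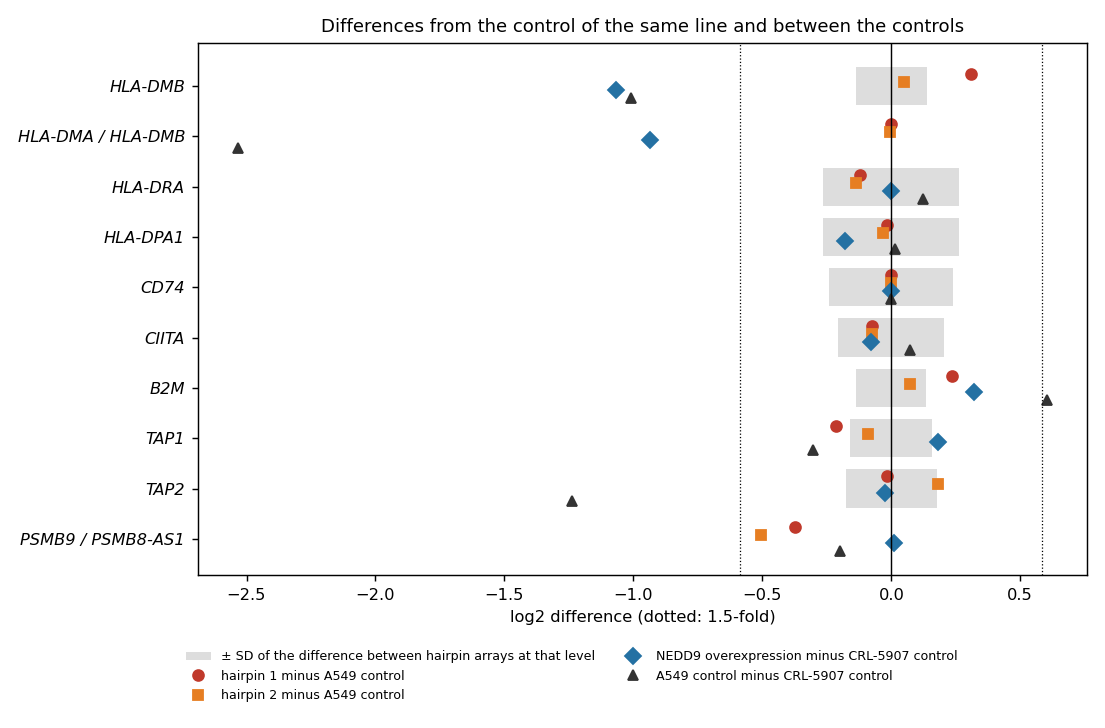
Log2 differences (horizontal axis) of each member and of the 2 features with 2 symbols. Symbols give the 4 differences named in the legend, grey bars the SD of the difference between the hairpin arrays at that level (8 members only), and dotted lines 1.5-fold. HLA-DMB (-1.07) and the shared HLA-DMA and HLA-DMB feature (-0.94) lie beyond 1.5-fold with overexpression, and the hairpin values of all features lie inside it.

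Counts were made over genes whose brightest array in a comparison lay above that array's median, which 4 of the 8 members (HLA-DMB, B2M, TAP1 and TAP2) did in each comparison. With knockdown 0 of the 8 members were at least 1.5-fold higher with each hairpin and 0 were at least 1.5-fold lower with each, where 0.709% of all 7473 genes were higher and 0.134% lower. NEDD9 itself did not pass this rule, so the count describes a slight lowering of NEDD9. With overexpression 1 member, HLA-DMB, was at least 1.5-fold lower and none higher, where 0.851% of 7406 genes were lower and 3.5% higher. Between the control arrays HLA-DMB and TAP2 were at least 2-fold lower in A549 and no member was higher, where 5% of 7716 genes were lower and 9.88% higher. HLA-DMB lay just inside this threshold at -1.01, and the next member outside it was B2M at 0.60. The shares over all genes moved with the scaling. After a further quantile normalisation 0.534% were higher and 0.24% lower with knockdown, and 2.54% higher and 1.5% lower with overexpression. The share of calls that were higher was thereby 69.0% with knockdown and 62.9% with overexpression, against 84.1% and 80.4% before it, and centring the arrays on their medians gave 73.7% with knockdown. The median log2 difference of the 8 members was -0.02 with each hairpin, -0.01 with overexpression and 0.01 between the lines. Over all genes these medians were 0.02 and 0.00 with the hairpins, 0.00 with overexpression and 0.01 between the lines. For knockdown, a fit with limma takes its residual from the difference between the 2 hairpin arrays. Its p-values do not measure the error of the single control array, so the share of small unadjusted ones is not a measure of response. limma, fitted across all 7473 genes for knockdown with 1 residual degree of freedom, called 0 genes at an adjusted p under 0.05 (0%; lowest adjusted p = 0.276 with Benjamini-Hochberg adjustment) and 1309 (17.5%) at an unadjusted p under 0.05.

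The other genes of the pathway were followed on 8 lists with 56 genes, of which 37 had a feature with 1 symbol. With knockdown none of the 37 passed 1.5-fold with both hairpins. With overexpression 1 passed it above the array median, on the higher side, and between the controls 1 passed 2-fold, higher in A549. By sign alone 13 of the 37 were above and 12 below control with both hairpins, and 26 were above and 10 below control with overexpression. Over all 14232 genes 5633 were above and 3947 below with both hairpins, and 6843 were above and 6026 below with overexpression. These signs depended on the scaling: after median centring 8 of the 37 were above and 22 below with both hairpins, and 19 were above and 18 below with overexpression. The signs over all genes moved the same way. After centring 31.3% of them were above and 48.1% below with both hairpins, and 41.7% were above and 58.3% below with overexpression.

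The other measured class II chains were all below the array medians. HLA-DQA1 and HLA-DQB1 had no feature of either kind, and the values of HLA-DQA2 and HLA-DQB2 do not stand for them. HLA-DQA2 was at 4.01 and 4.18 with the hairpins against 4.53 on the A549 control, and HLA-DQB2 at 4.69 and 4.95 against 5.12. All 4 measured chains, which also include HLA-DPB1 and HLA-DOA, were lower than control with both hairpins, at levels where a signal above background was not shown. Over all 14232 genes 27.7% were lower with both. Only HLA-DQA2 exceeded the yardstick of its level (0.263) with both hairpins, and all these differences share 1 control array. With overexpression HLA-DQB2 differed by -0.28 and HLA-DQA2 by -0.24. No chain was higher than control and 3 were lower, where 42.3% of all genes were lower. Between the control arrays HLA-DQA2 differed by 0.21 and HLA-DPB1 by -0.10. The features that carry several HLA-DRB symbols ranged from 2.12 to 2.66.

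Among the factors that bind class II promoters, RFX5, a subunit of the RFX complex, was at 6.31 with overexpression against 5.79 on the CRL-5907 control (log2 difference 0.52). It was at 6.31 with each hairpin against 6.11 on the A549 control. RFX5 was thus higher in both manipulations, and a link to the level of HLA-DMB was not tested. The 3 manipulated arrays had exactly equal RFX5 values, as ties of the normalisation can give. RFXAP, another subunit of that complex, differed by -0.14 and -0.10 with the hairpins and was below the array medians. NFYB, a subunit of the CCAAT-binding factor, was at 4.60 with overexpression against 4.17 on the CRL-5907 control, both below the array medians. CREB1, which binds the X2 element of class II promoters, was 1.52-fold higher on the A549 control than on the CRL-5907 control, and NFYB differed by 0.39 between them.

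In the endosomal list no member passed 1.5-fold with both hairpins or, above the array median, with overexpression. SPPL2A, the protease that clears the membrane stub of the invariant chain, was at 9.01 and 8.91 with the hairpins against 8.69 on the A549 control, a mean difference of 0.27 ± 0.07 (SD, n = 2). MARCHF8, a membrane-bound ubiquitin ligase, was at 7.58 and 7.43 against 7.28. CTSB, which encodes cathepsin B, was at 9.39 with overexpression against 9.17 on the CRL-5907 control. MARCHF1, the ubiquitin ligase that removes class II molecules from the surface of antigen-presenting cells, was at 4.37 with overexpression against 4.95 on the CRL-5907 control, below the array medians on all 5 arrays. With knockdown it was at 3.24 and 3.73 against 3.82 on the A549 control, a mean difference of -0.33 ± 0.35 (SD, n = 2), so that the hairpins differed more than their mean lay from control. LGMN, an asparaginyl endopeptidase of endosomes, was at 10.19 on the A549 control and at 8.90 on the CRL-5907 control, which is 2.44-fold higher in A549. MARCHF1 was 2.20-fold lower in A549.

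For class I heavy chains, HLA-E, a ligand of NK-cell receptors, was at 7.59 with each hairpin against 7.71 on the A549 control, and at 7.17 with overexpression against 7.09 on the CRL-5907 control. It was 1.54-fold higher on the A549 control than on the CRL-5907 control. HLA-F was below the array medians on all arrays, with differences of 0.01 with each hairpin, -0.23 with overexpression and -0.01 between the controls. The classical chains were covered by a feature that carries HLA-B and HLA-C together. This feature was at 9.59 and 9.42 with the hairpins against 9.92 on the A549 control, a mean difference of -0.42 ± 0.13 (SD, n = 2). It was at 10.03 with overexpression against 10.05 on the CRL-5907 control. The near-identical class I genes can share probes, and these values are uncertain for either gene.

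Among the peptide-loading genes, ERAP1, an aminopeptidase that trims peptides in the endoplasmic reticulum, was at 6.63 and 6.59 with the hairpins against 6.30 on the A549 control. It was at 6.60 with overexpression against 6.43 on the CRL-5907 control, and so was higher with every manipulation. The hairpin differences (0.32 and 0.29) exceeded the yardstick of 0.178, and that with overexpression (0.17) did not. TAPBP, which encodes tapasin, was at 9.47 and 9.31 with the hairpins against 9.53 on the A549 control, and at 10.05 with overexpression against 9.91 on the CRL-5907 control. Between the controls CALR, the chaperone calreticulin, differed by 0.53 and TAPBP by -0.39.

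PSME2, a subunit of the PA28 activator of the proteasome, was the 1 pathway gene besides the members that passed 1.5-fold with overexpression above the array median. It was at 8.36 with overexpression against 7.70 on the CRL-5907 control, which is 1.58-fold higher. After a further quantile normalisation its log2 difference was 0.57, short of 1.5-fold. With knockdown it was at 8.11 and 8.16 against 8.47 on the A549 control, a mean difference of -0.34 ± 0.03 (SD, n = 2). Its direction was thus opposite in the 2 manipulations, and the A549 control was 1.71-fold above the CRL-5907 control. The knockdown and line differences share the A549 control array, and the overexpression and line differences the CRL-5907 control array. An error of either array would enter each difference that uses it. PSME1, the partner subunit, was at 8.78 with overexpression against 8.29 on the CRL-5907 control, and at 9.27 and 9.14 with the hairpins against 9.23 on the A549 control. PSME1 was 1.92-fold higher on the A549 control than on the CRL-5907 control. The immunoproteasome subunit gene PSMB8 lay below the medians on all arrays, with differences of -0.20 and -0.06 with the hairpins. The constitutive catalytic subunit genes PSMB6 and PSMB7 were higher than control with both hairpins (mean differences 0.24 ± 0.03 and 0.23 ± 0.03, SD, n = 2) and with overexpression (0.27 and 0.17). Between the controls PSMB7 differed by -0.32 and PSMB6 by 0.11.

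On the interferon gamma list all 7 measured genes were above control with overexpression, with a median difference of 0.18, where 48.1% of all 14232 genes were above control with a median of 0.00. After median centring, or after a further quantile normalisation, 6 of the 7 were above and 1 below, where 41.7% and 39% of all genes were above. Of the 7 genes, 5 passed the level filter, and of all 7406 genes that passed it 4350 were above control before rescaling. NLRC5, a regulator of class I genes, was above control by only 0.01. JAK2, a kinase of the interferon gamma receptor, was at 5.51 with overexpression against 4.92 on the CRL-5907 control, a 1.51-fold difference below the array medians. IRF1, an interferon-induced transcription factor, was at 6.41 against 6.06, and it had the same value of 5.61 on the 3 A549 arrays. With knockdown JAK2 was at 4.80 and 4.72 against 4.39 on the A549 control, and SOCS1, a feedback inhibitor of JAK kinases, was at 4.78 and 4.69 against 5.04, all below the medians. The receptor chains ran in opposite directions between the lines. IFNGR1 was 1.75-fold higher and IFNGR2 1.71-fold lower on the A549 control than on the CRL-5907 control.

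**Figure D4:**
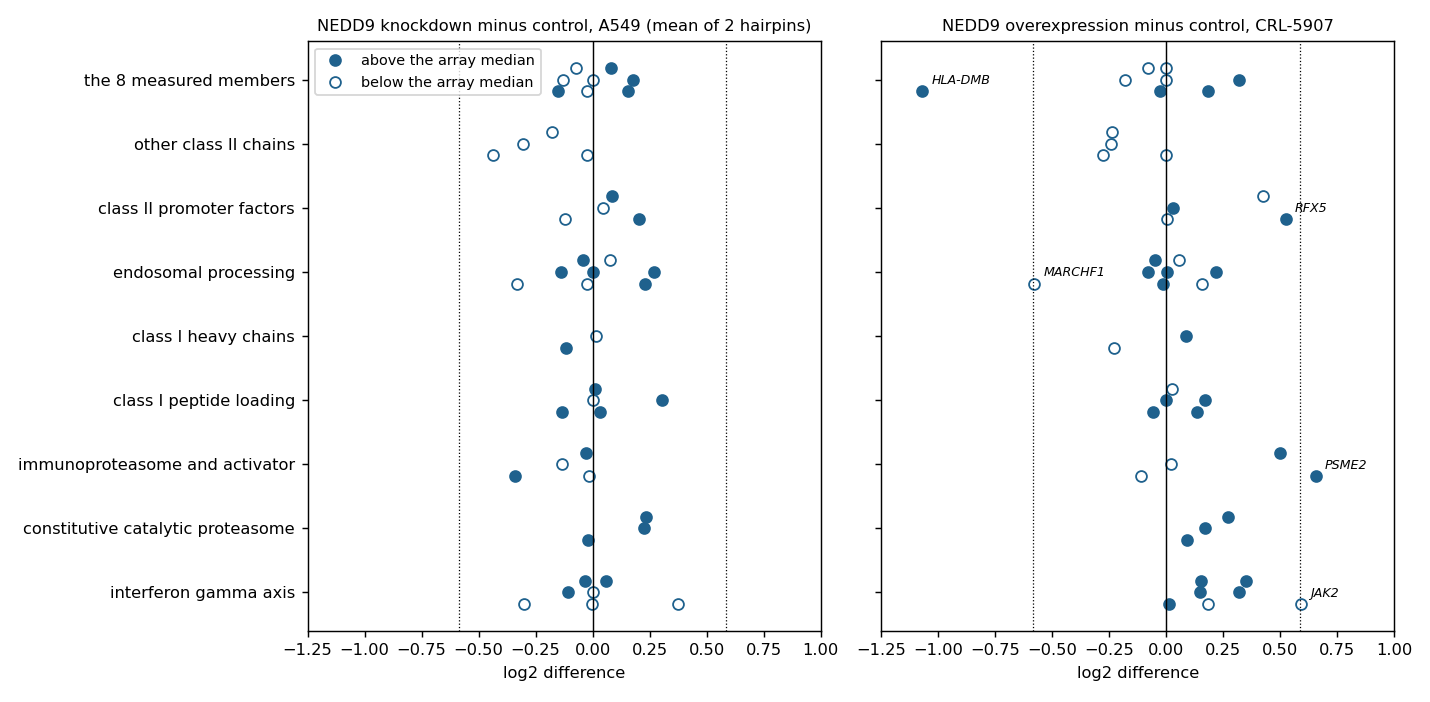
Log2 difference from control (horizontal axis) of each measured gene of 9 lists, for NEDD9 knockdown as the mean of 2 hairpins (left) and NEDD9 overexpression (right). Each point is a gene, filled where its brightest array in the comparison lay above the array median and open otherwise, and dotted lines mark 1.5-fold. Only HLA-DMB (-1.07) and PSME2 (0.66) lie beyond 1.5-fold as filled points, both with overexpression.

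The genes nearest to HLA-DMB in their 4 log2 differences (both hairpins, overexpression, and A549 control minus CRL-5907 control) were sought among 6842 other genes that passed the level filter in both lines. SNTB1, a syntrophin gene, was the nearest, at a Euclidean distance of 0.282 where the median over all these genes was 1.60. It differed by 0.45 and 0.21 with the hairpins, by -0.94 with overexpression and by -1.15 between the controls. LINC00174 (0.497), LHX9 (0.523), TPCN1 (0.536) and TMC5 (0.549) followed. Because 2 of the 4 differences share the CRL-5907 control array and the other 2 share the A549 control array, a high value on a single control array alone would bring genes close by this measure.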

How the data were processed

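Biotin-labelled cDNA made from total RNA of each of 5 samples was put on 1 exon array, per the labels' protocols. The authors deposited log2 values of 22011 features, with RMA and Affymetrix Power Tools named in the submitters' processing notes. RMA removes background, equalises the distributions of the arrays and combines the probes of each feature. That the logs are to base 2 was judged from the value range. Scanner files and the genome build were not used here, so detection above background is unknown, and the number of arrays limits the precision.

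Samples were grouped by title. For hairpin 2 the description says NEDD10 but the title NEDD9, which was used. The platform annotation gave 14432 features with 1 symbol, 2408 with several and 5171 unnamed. Of the first, 14404 matched the RefSeq gene table by Entrez number, and 0 symbols differed. Differences, counts and medians were computed with Python 3.11.15 and pandas 2.3.3. The knockdown fit used limma 3.58.1 under R 4.3.3 (eBayes with a trend after lmFit, prior degrees of freedom 0.729). The fit was also run on simulated data with the same SD for every gene. Real genes need not share an SD, so that run does not vouch for the calls. The yardstick is the SD of hairpin 1 minus hairpin 2 in 20 bins of level. Members and lists were chosen with earlier results of these data known. All measured members were named, and of each list the genes past the fold threshold and the 2 furthest from control in each comparison (for knockdown, by the smaller of 2 hairpin differences of the same sign). Features with several symbols, the motifs and their spellings and the promoters of HLA-DMA and CD74 were added after the values were seen. Alternatives were centred arrays, a further quantile normalisation, feature means, other level filters and folds, and each hairpin alone. Protein sequences were not used here.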

Additional observations from a re-analysis of the deposited data

How the results depend on the processing

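The 8 members had 24 log2 differences (knockdown mean, overexpression and between the controls), recomputed under other scalings. A further quantile normalisation moved 22 of them by less than the yardstick of their level. The other 2 were those of HLA-DMB, which became -1.21 with overexpression and -1.15 between the controls. No difference past the fold threshold changed sign. Median centring shifts all genes of a comparison alike, by sizes of 0.033 to 0.074, and the mean of a gene's features is the same value here because each member had 1 feature, so neither tests these values. The number of members past 1.5-fold with knockdown was 0 under the other settings of scaling, filter and fold and with each hairpin alone. With overexpression the 1 member became 2 when the 2 features with several symbols, added after seeing the data, were counted. Between the controls the 2 members became 0 at the higher fold of 4, 3 at the lower fold of 1.5, where B2M was added on the higher side, and 3 with the features of several symbols. limma called 0 genes under each of its 3 alternatives, with 1204 to 2220 genes at an unadjusted p under 0.05. No paired analysis was possible because the control arrays carry no replicate numbers shared with the hairpins. Neither control nor the overexpression array is replicated, and low signal limits what can be seen of HLA-DRA, HLA-DPA1, CD74 and CIITA.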

Other observations

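Several further antigen processing genes were covered only by features that carry more than 1 symbol, and their values cannot be assigned to a single gene. The feature of CTSL, the endosomal protease cathepsin L, and CTSLP8 was at 10.14 with hairpin 1 and 9.95 with hairpin 2 against 9.67 on the A549 control, and at 8.95 with overexpression against 8.61 on the CRL-5907 control. It was 2.09-fold higher on the A549 control than on the CRL-5907 control. The feature of TAPBPL, a peptide editor related to tapasin, and VAMP1 differed by 0.34 with hairpin 1 and -0.26 with hairpin 2. It was at 8.01 with overexpression against 7.88 on the CRL-5907 control, and the A549 control was 1.90-fold below the CRL-5907 control. The feature of CTSD, cathepsin D, and IFITM10 stayed between 11.06 and 11.18 on all 5 arrays. That of NFYA, a subunit of the CCAAT-binding factor, and ADCY10P1 was at 7.30 with overexpression against 7.57 on the CRL-5907 control.

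The X box end, a spelling chosen with the HLA-DMB and HLA-DMA windows in view, and the CCAAT box occurred together in 62 of the 35116 promoter windows (0.177%), and 18 of the genes with such a window had a feature with 1 symbol. Among them HLA-DMB was the furthest below control with overexpression (-1.07). TAS2R3, a bitter taste receptor gene, followed at -0.43, and it also differed by -1.13 between the A549 and CRL-5907 controls. The histone gene H3C1 was the furthest above control, at 1.53, although near-identical copies make histone values uncertain. The spelling was kept because the HLA-DMB window holds it. Only 4 of the 7406 genes that passed the level filter were further down than HLA-DMB with overexpression. Its place among the 18 was therefore nearly set in advance, and a link between these motifs and the difference was not tested.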
